A study of Anopheles gambiae with 36 samples.

Results

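The male ear of the malaria mosquito Anopheles gambiae was compared between the late night (ZT20) and the afternoon (ZT8) by RNA-sequencing of the Johnston's organ (JO). The comparison rests on 6 of the 36 libraries of the series, 3 from males taken at ZT20 and 3 from males taken at ZT8, and all of them were chosen by their labelled sex and zeitgeber time (ZT). ZT counts the hours from the start of the light phase, so that ZT20 falls in the dark phase and ZT8 in the light phase. Each library was made from second antennal segments of pooled males of the Kisumu strain, with the flagella cut off, and the males carried no transgene or treatment. The methods name 35 male and female mosquitoes for the collection and give no number per library. Both groups were kept at 28 °C and 80% humidity in 12 h of light and 12 h of dark with ramps of 1 h, were entrained for 3 days, and are covered by a stated age range for all experiments of 3 to 7 days. The labels and methods state no other difference between the groups.

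The JO is the hearing organ in the second antennal segment of the mosquito. It holds ciliated mechanosensory neurons and receives efferent fibres from the brain that release neuromodulators such as octopamine, serotonin and GABA. Male mosquitoes use it to hear flying females in swarms that form around dusk. Transcript levels in insect tissues follow the time of day because of circadian clocks and because of light, and a light and dark cycle as used here does not separate these sources. Octopamine is the insect counterpart of noradrenaline and acts through G protein-coupled receptors, of which the β-adrenergic-like ones raise cyclic AMP.

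The 6 libraries held between 13961671 and 18254972 estimated counts each. Libraries of 1 group differed by more than counting noise, so none was a deposited copy of another's counts, which does not tell apart repeat preparations of the same RNA. Opsins, the visual pigments of the eye, took 1.72, 4.58 and 13.7% of the counts in the ZT20 libraries, against 6.43, 7.99 and 3.43% in the ZT8 libraries. The ZT20 range enclosed the ZT8 range, and an exact two-sided permutation test of the summed opsin counts gave p = 0.800, where 0.1 is the smallest value that 3 libraries against 3 can give. The number of transcripts called with the opsin level in the model is given below. The sources used here attach no names to the mechanosensory channel and axoneme genes that define JO neurons, so the tissue label was not checked against them. Orco, the co-receptor of odorant receptors in olfactory neurons of the flagellum, was near 0, with 2.29, 6.92 and 0.677 normalised counts in the ZT20 libraries, against 0, 3.49 and 4.67 in the ZT8 libraries. IR25a (AGAP010272-RA) was set beside Orco for this report. The study lists it among glutamate receptors and does not call it a marker of the flagellum. It was detected in all 6 libraries. It had 73.9, 91.5 and 65.0 normalised counts at ZT20, against 74.5, 94.1 and 94.9 at ZT8. Whether flagellum tissue was left was not tested. In bulk tissue, fewer cells of a type and less RNA per cell cannot be told apart.

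Between ZT20 and ZT8, 84 of 12360 tested transcripts differed in males (0.68% of those tested; edgeR quasi-likelihood test, adjusted p under 0.05), of which 27 (0.218%) were higher and 57 (0.461%) were lower at ZT20. They came from 83 genes. In all 84 the 3 ZT20 libraries and the 3 ZT8 libraries did not overlap, a pattern that 12.7% of all tested transcripts had, 5.19% with ZT20 higher and 7.49% with ZT20 lower. DESeq2 called 275 transcripts (2.33% of 11805), 106 higher (0.898%) and 169 lower (1.43%), and all 84 were among them. Changes over 2-fold were found in 18 of the 27 higher and 39 of the 57 lower transcripts, and changes over 4-fold in 7 and 15 of them. The absolute log2 fold change had a median of 1.58 among the higher transcripts (range 0.64 to 4.40) and of 1.27 among the lower ones (range 0.53 to 8.13). The median signed log2 fold change of all tested transcripts was -0.004.

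The spread in this test was shared by the 17 male libraries of 6 time points that were used, without the ZT12 library that the authors discarded. Every one of the 84 transcripts kept its sign under the alternatives fitted per transcript, which leaves out the counts summed per gene. Since the groups did not overlap in any of the 84, a change of sign was hardly possible, and the kept signs do not test the calls. With the opsin level as a covariate all 84 were still called, among 135 transcripts. The number called was smaller when single libraries were left out, at 49 without ZT8 replicate 1, 46 without ZT8 replicate 3, 44 without ZT20 replicate 2 and 43 without ZT20 replicate 3. With the discarded library put back, 3 transcripts were called, namely AGAP004261-RB (log2 fold change 2.78), AGAP006480-RA (-2.78) and AGAP006867-RA (-8.09), the first 2 of these being chosen after their values were seen.

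**Figure D1:**
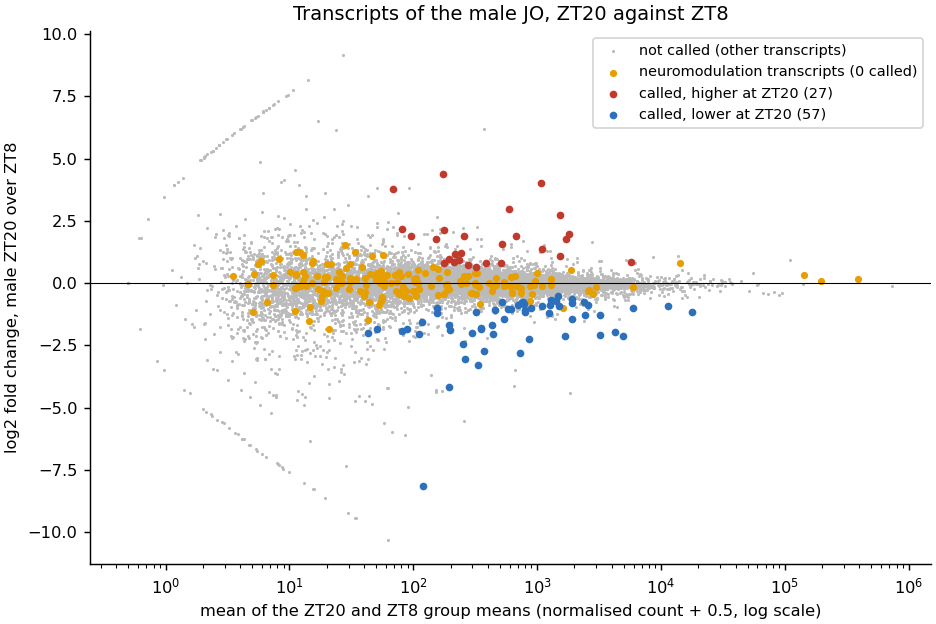
Log2 fold change of male ZT20 over ZT8 (y axis) against the mean of both group means in normalised counts plus 0.5 (x axis, log scale), with 1 point per tested transcript. The 27 transcripts called higher (red) reach a log2 fold change of 4.40, the 57 called lower (blue) reach -8.13, and the neuromodulation transcripts (orange) hold no call.

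The transcripts are given by their identifiers, because the reference table matched none of them and the count table pairs no identifier with a name. The rule for naming took the largest called changes without overlap between the groups whose higher group averaged at least 50 normalised counts. It took at most a pair of unnamed transcripts in each direction. AGAP010765-RA had 184, 264 and 537 normalised counts in the ZT20 libraries, against 10.9, 20.2 and 15.6 in the ZT8 libraries. Its fitted log2 fold change was 4.40 (SE 0.62, edgeR adjusted p = 0.00277). AGAP010766-RA had 1540, 1641 and 2902 normalised counts at ZT20, against 136, 100.4 and 146 at ZT8. The fitted log2 fold change was 4.02 (SE 0.475, edgeR adjusted p = 7.26e-04). Both were also higher at ZT16 than at ZT4 in males, by 4.11 and 4.10 on the log2 scale, and these 2 time points share no library with ZT20 and ZT8.

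AGAP006867-RA was nearly undetected at ZT20. Its normalised counts were 0.76, 1.54 and 0 in the ZT20 libraries, against 203, 195 and 320.4 in the ZT8 libraries. Summed over libraries, 3 counts at ZT20 stood against 915 at ZT8. Scaled for library size, the ZT8 level was 327 times the ZT20 level, with a 95% interval of 111 to 1587 that covers counting error only (edgeR adjusted p = 1.24e-04). In males at ZT16 over ZT4 the log2 fold change was -7.21 and was called, while female libraries held 2 counts at ZT20 and 18 at ZT8, too few for the filter on low counts. AGAP005834-RA had 28.94, 13.06 and 18.27 normalised counts at ZT20, against 617, 272 and 202 at ZT8. The summed counts of 82 and 1329 give a ZT8 level 17.4 times that of ZT20. The ZT8 libraries differed widely among themselves, and the log2 fold change was -4.15 (SE 0.69, edgeR adjusted p = 0.00887), and the call was lost without ZT20 replicate 2 (-3.93, edgeR adjusted p = 0.0790) or ZT20 replicate 3 (-4.06, edgeR adjusted p = 0.0693). At male ZT16 over ZT4 its log2 fold change was -0.44 and was not called.

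A single gene, AGAP006480, had more than one called isoform, and it was chosen after its values were seen. AGAP006480-RA had 176, 156 and 203 normalised counts at ZT20, against 1610, 773 and 1433 at ZT8. AGAP006480-RB had 38.8, 117 and 127 at ZT20, against 865, 399.6 and 674 at ZT8. The log2 fold changes were -2.80 (edgeR adjusted p = 3.02e-04) and -2.74 (edgeR adjusted p = 0.00483). Over the 6 male time points from ZT0 to ZT20, RA averaged 1470, 1744, 1272, 112, 217 and 178 normalised counts, so that the 3 daytime means lay above those from ZT12 onwards. Among the 83 genes, 18 have more than 1 annotated transcript, and in 16 of these another isoform was tested and not called. Of those 21 other isoforms, 18 moved in the direction of the called one. When counts were summed over the isoforms of a gene, 104 of 10603 genes differed (0.981%), and 77 of the 83 genes were among them.

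The called transcripts were then read at the other times of day in males. The male ZT12 means, here and for single transcripts, rest on replicates 1 and 2 alone, because replicate 3 was discarded. Relative to ZT8, the median log2 level of the 27 transcripts higher at ZT20 was 0.66 at ZT0, 0.24 at ZT4, 0.99 at ZT12, 1.42 at ZT16 and 1.55 at ZT20. The same median of the 57 lower transcripts was -1.12 at ZT0, -0.80 at ZT4, -0.63 at ZT12, -1.11 at ZT16 and -1.30 at ZT20. Because ZT20 and ZT8 chose these transcripts, their values at those times are a description. Among the 27, the highest of the 6 male time means lay at ZT20 in 13, at ZT12 in 9, at ZT16 in 4 and at ZT4 in 1, and the lowest lay at ZT8 in 18. The exception with its highest mean by day was AGAP005388-RA, chosen after its values were seen, which averaged 493.5, 495.5, 110, 169, 296 and 404 normalised counts from ZT0 to ZT20. Among the 57, the highest mean lay at ZT8 in 42, at ZT4 and at ZT12 in 7 each and at ZT0 in 1, and the lowest means were spread from ZT12 to ZT4, with 18 at ZT20 and 16 at ZT0.

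**Figure D2:**
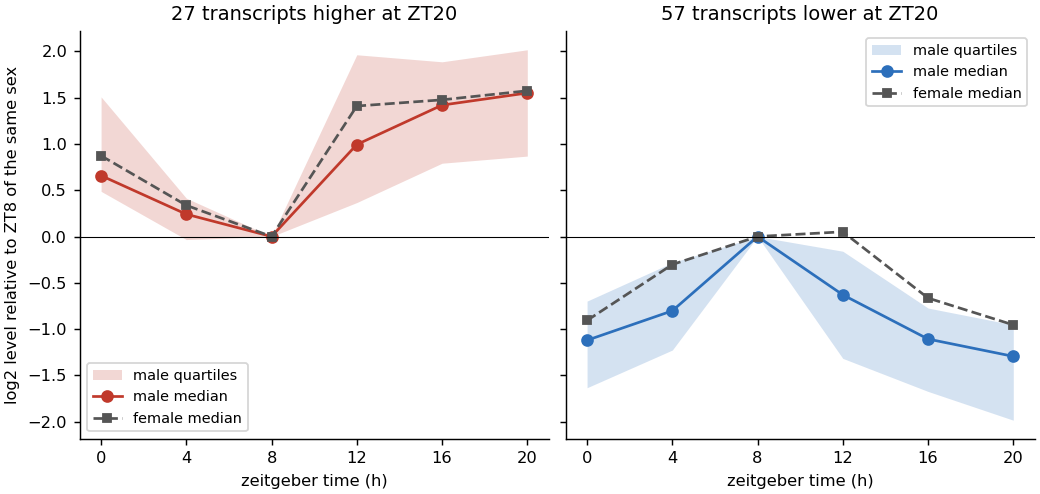
Median log2 level relative to ZT8 (y axis) against zeitgeber time in hours (x axis) for the 27 transcripts called higher (left) and the 57 called lower (right) at male ZT20, with male medians as solid lines, male quartiles as bands and female medians as dashed lines. The male median of the higher transcripts is 0.24 at ZT4 and 1.42 at ZT16, while that of the lower ones is -0.80 at ZT4 and -1.11 at ZT16.

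The male libraries of ZT16 and ZT4, a night and a day time that the comparison did not use, gave a separate reading. Of the 27 higher transcripts, 25 were also higher at ZT16 than at ZT4 and 14 were called so, against 82 of 12360 transcripts (0.663%) called in that comparison, 0.405% higher and 0.259% lower, and 6.72% at an unadjusted p under 0.05. Their median log2 fold change was 1.02. Of the 57 lower transcripts, 38 were also lower at ZT16 and 11 were called so, with a median of -0.26. Over all transcripts tested, 50.6% had a positive log2 fold change of ZT16 over ZT4. Both comparisons come from the same fit, which shares 1 estimate of the spread. The ZT16 libraries were uneven in their markers. Opsins took 13.4% of the counts in ZT16 replicate 2, against 1.65 and 2.12% in replicates 1 and 3. Orco was at 127 normalised counts in ZT16 replicate 2, against 4.41 and 3.78 in replicates 1 and 3. At ZT4, opsins took 5.46, 2.28 and 12.4%. The effect of this unevenness on the shared calls was not tested.

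Of the lower transcripts, 3 were called in the other direction at ZT16 over ZT4, and they were chosen after their values were seen. AGAP002355-RB had 10660, 10820 and 10930 normalised counts at ZT20, against 26110, 24570 and 23170 at ZT8. Its log2 fold change was -1.16 at ZT20 over ZT8 (edgeR adjusted p = 0.00262) and 0.92 at ZT16 over ZT4 (edgeR adjusted p = 0.0118). Its male means from ZT0 to ZT20 were 7876, 8149, 24620, 26210, 15370 and 10800, a course that peaked at ZT8 and ZT12. AGAP001587-RA had log2 fold changes of -0.93 and 0.69 in the same order of comparisons, and AGAP007801-RA had -0.76 and 1.54. AGAP001587-RA had its highest mean at ZT12 (1541 normalised counts) and AGAP007801-RA at ZT8 (3022). The ZT20 call of AGAP007801-RA (edgeR adjusted p = 0.0246) was lost without any of ZT8 replicates 1, 2 and 3 or ZT20 replicates 2 and 3, at adjusted p-values of 0.0704 to 0.163 and log2 fold changes of -0.79 to -0.69.

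In females, the same times of day gave 20 called transcripts of 12322 (0.162%), 13 higher (0.106%) and 7 lower (0.0568%) at ZT20, and 4.55% were under an unadjusted p of 0.05. All 27 transcripts that were higher in males were also higher in females at ZT20, with a median log2 fold change of 1.64, and 8 of them were called. Of the 57 lower transcripts 56 were tested in females, 53 were lower and 4 were called, with a median of -0.87. Over all transcripts tested in females, 51.6% had a positive log2 fold change. The female libraries of these times held more opsin than the male ones. Opsins took 23.9, 45.6 and 27.8% of the counts at female ZT20, against 27.2, 26.6 and 39% at female ZT8. Orco had 8.22, 57.8 and 5.05 normalised counts at female ZT20, against 12.2, 4.09 and 52.2 at female ZT8. With the opsin level as a covariate, 54 transcripts were called in females and 135 in males. Beyond this, the effect of library composition on the comparison of the sexes was not tested. The change between ZT20 and ZT8 was tested for a difference between males and females in 35 libraries, and 0 of 12898 transcripts were called (0%; edgeR, smallest adjusted p = 0.611), with 376 (2.92%) at an unadjusted p under 0.05. DESeq2 called 35 of 12883 (0.272%) in the same contrast, 2 of which were among the 84. These were AGAP005834-RA, at a log2 fold change of -4.15 in males and -0.84 in females, and AGAP001856-RA, at 1.99 in males and 3.65 in females.

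The 4 lower transcripts called in both sexes were AGAP001889-RA, AGAP001890-RA, AGAP005655-RA and AGAP007572-RA, chosen after their values were seen. AGAP001889-RA had 1529, 2481 and 1388 normalised counts at ZT20 in males, against 8252, 10230 and 5712 at ZT8, and a log2 fold change of -2.13 in males and -2.44 in females. AGAP001890-RA had 267, 382 and 232 at male ZT20, against 1672, 1502 and 1078 at male ZT8, with log2 fold changes of -2.24 in males and -2.22 in females. Both peaked at ZT12 among the male means, at 9904 and 1593 normalised counts, and neither was called at ZT16 over ZT4. AGAP005655-RA had 1174, 969 and 889 at male ZT20, against 3125, 2310 and 2995 at male ZT8. It was called in all 3 comparisons, with log2 fold changes of -1.45 at male ZT20 over ZT8, -1.76 at male ZT16 over ZT4 and -2.33 in females. AGAP007572-RA had 50.3, 67.6 and 112 at male ZT20, against 464, 494 and 319 at male ZT8, and its male call (log2 fold change -2.45, edgeR adjusted p = 0.0319) was lost without any 1 of the 6 libraries, at adjusted p-values of 0.0558 to 0.176 and log2 fold changes of -2.79 to -2.22.

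The other sign in females was found in 3 of the lower transcripts, again chosen after their values were seen. AGAP011061-RA had 56.4, 59.9 and 60.2 normalised counts at male ZT20, against 165, 146 and 218 at male ZT8, a log2 fold change of -1.55 in males and 0.08 in females. AGAP003323-RA was at -0.87 in males and 0.20 in females, and AGAP012010-RB at -0.78 and 0.38. None of the 3 differed in the test of males against females. The male call of AGAP012010-RB was lost without ZT20 replicate 3 (-0.76, edgeR adjusted p = 0.0612), and that of AGAP003323-RA without ZT8 replicate 3 (-0.78, adjusted p = 0.0698), ZT20 replicate 2 (-0.87, adjusted p = 0.0566) or ZT20 replicate 3 (-0.74, adjusted p = 0.0922).

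**Figure D3:**
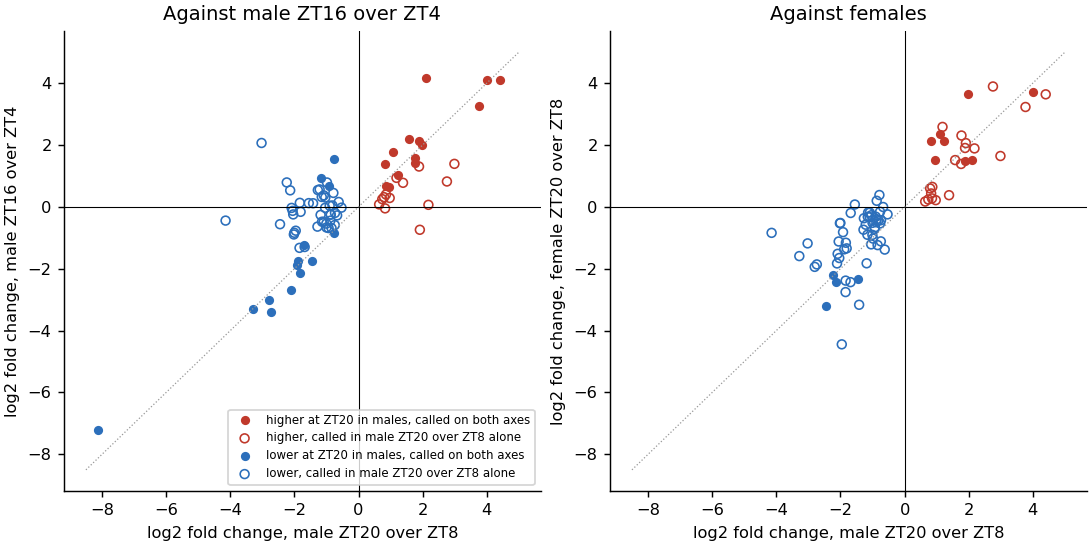
Log2 fold change of the called transcripts at male ZT20 over ZT8 (x axis) against male ZT16 over ZT4 (left, y axis) and female ZT20 over ZT8 (right, y axis), with filled points for transcripts called on both axes and a dotted line of equal change. All 27 transcripts higher in males (red) lie above 0 in females, and 38 of the 57 lower ones (blue) lie below 0 at ZT16 over ZT4.

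The study's list of neuromodulation genes (receptors for amines, classical transmitters and peptides, other G protein-coupled receptors and receptors of other senses) was used as the union of its male list (154 transcripts as held here) and its female list (152), which gives 172 transcripts of 151 genes. Members that the lists held here lack were not analysed. The lists were drawn up by the study from transcripts expressed in these libraries, so they are not independent of them. Of its members, 170 were tested between male ZT20 and ZT8 and 0 were called by edgeR, against 0.68% of all transcripts. At an unadjusted p under 0.05 there were 3 higher and 6 lower members (5.29% of the list), against 8.6% of all tested transcripts (4.08% higher and 4.52% lower), and DESeq2 called 1 member, GABA-B-R1. The groups did not overlap in 2 members that were higher and 7 that were lower (5.29% of the list), against 12.7% of all tested transcripts (5.19% higher and 7.49% lower). The list was balanced, with 85 positive and 85 negative log2 fold changes and a median of 0.001. The smallest adjusted p was 0.0919. The 95% interval of the change lay within 2-fold in either direction for 54 members and reached 2-fold for the other 116, so that for most of the list a change of that size was within the error.

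**Figure D4:**
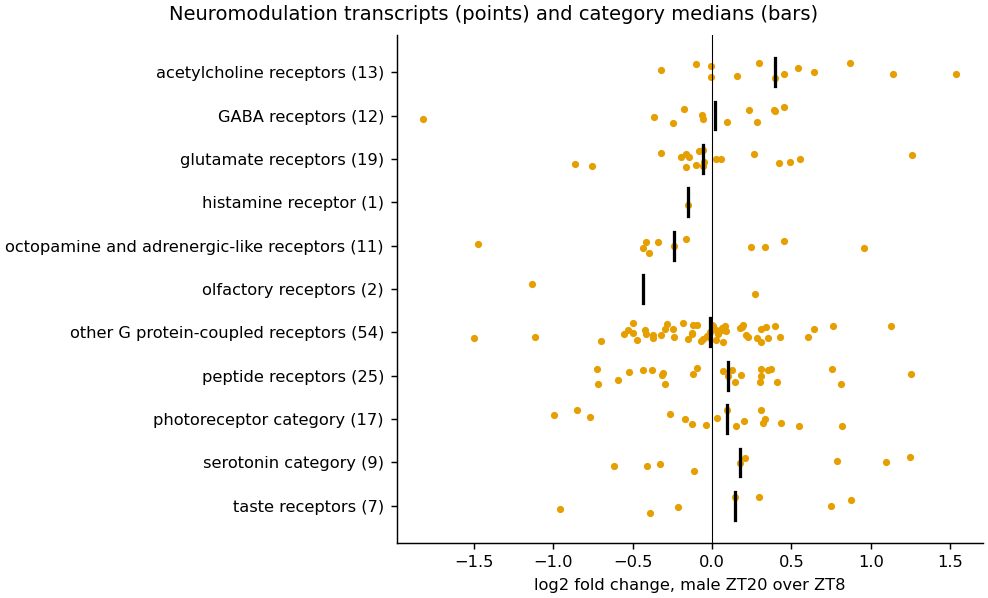
Log2 fold change of male ZT20 over ZT8 (x axis) for the 170 tested neuromodulation transcripts (points) in the categories of the study (rows, number tested in parentheses), with black bars at the category medians. The medians lie close to 0 for most categories. They are furthest from 0 at -0.43 for 2 olfactory receptor transcripts and 0.40 for 13 acetylcholine receptor transcripts. The median of the 11 octopamine and adrenergic-like receptor transcripts, -0.24, is the value of Octβ3R RA, which has an SE of 1.77.

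Among the octopamine receptors, none passed the test. Of the 11 transcripts of octopamine and adrenergic-like receptors, 7 had negative log2 fold changes, beside 6251 of all 12360 tested transcripts. The 7 are the transcripts of Oamb, Octβ2R, Octα2R and Octβ3R, while the 4 positive ones belong to other receptors of the category. Several of the 7 are isoforms of the same gene, so the count does not show a shift of the family. Summed per gene, the log2 fold changes were -0.39, -0.42, -0.44 and -0.54 in that order, and none was called (smallest edgeR adjusted p = 0.518). These genes were read in the same libraries, so their signs are not independent. Octβ2R (AGAP002886-RA), a β-adrenergic-like receptor, had 3207, 1838 and 2206 normalised counts at ZT20, against 3457, 2957 and 3431 at ZT8. ZT20 replicate 1 lay within the ZT8 range and the other two ZT20 libraries below it. The log2 fold change was -0.42 (95% interval -0.91 to 0.08, edgeR adjusted p = 0.674). Its interval excluded a 2-fold change.

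Oamb (AGAP000045) is the α-adrenergic-like octopamine receptor, which in Drosophila signals through calcium and cyclic AMP. Its isoform RB had 354, 182 and 229 normalised counts at ZT20, against 478, 239 and 310.2 at ZT8, and the groups overlapped. The log2 fold change was -0.40 (95% interval -1.07 to 0.28, edgeR adjusted p = 0.848). From ZT0 to ZT20 the male means of RB were 128, 199.9, 342, 584, 232 and 255 normalised counts, highest at ZT12, a time outside this comparison. The highest male mean of isoform RA was at ZT0 (108). Isoform RA had 117, 38.4 and 54.2 at ZT20, against 95.4, 66.3 and 107 at ZT8, a log2 fold change of -0.34 (95% interval -1.27 to 0.59, edgeR adjusted p = 0.937). Octα2R (AGAP000606-RA) had 376, 193 and 233 at ZT20, against 544, 234 and 329 at ZT8, a log2 fold change of -0.44 (95% interval -1.25 to 0.38, edgeR adjusted p = 0.877). Replicate 1 had the highest counts of the ZT20 libraries for Octβ2R, both Oamb isoforms and Octα2R, and of the ZT8 libraries for all of these except Oamb RA.

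Octβ3R (AGAP002888) has 3 isoforms, and its reads were divided unevenly among them from library to library. RC had 64.0, 47.6 and 117 normalised counts at ZT20, against 61.8, 94.8 and 103 at ZT8. RB had 61.7, 5.38 and 0 at ZT20, against 64.5, 48.1 and 76.2 at ZT8, with a log2 fold change of -1.47 (95% interval -3.61 to 0.66, edgeR adjusted p = 0.789). Without ZT20 replicate 1, its log2 fold change was -4.48 (edgeR adjusted p = 0.0431). RA was at 0, 33.8 and 10.8 at ZT20, against 0, 20.9 and 33.4 at ZT8. Summed over isoforms, Octβ3R had 126, 86.9 and 128 normalised counts at ZT20, against 126, 164 and 213 at ZT8, a log2 fold change of -0.54 (SE 0.25, edgeR adjusted p = 0.518). The tyramine receptor GPRTYR (AGAP002519-RA) was low, with 24.4, 3.84 and 32.5 at ZT20, against 5.45, 17.4 and 28.8 at ZT8, and its log2 fold change of 0.25 turned negative without ZT8 replicate 1 (-0.15) or ZT20 replicate 3 (-0.26).

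**Figure D5:**
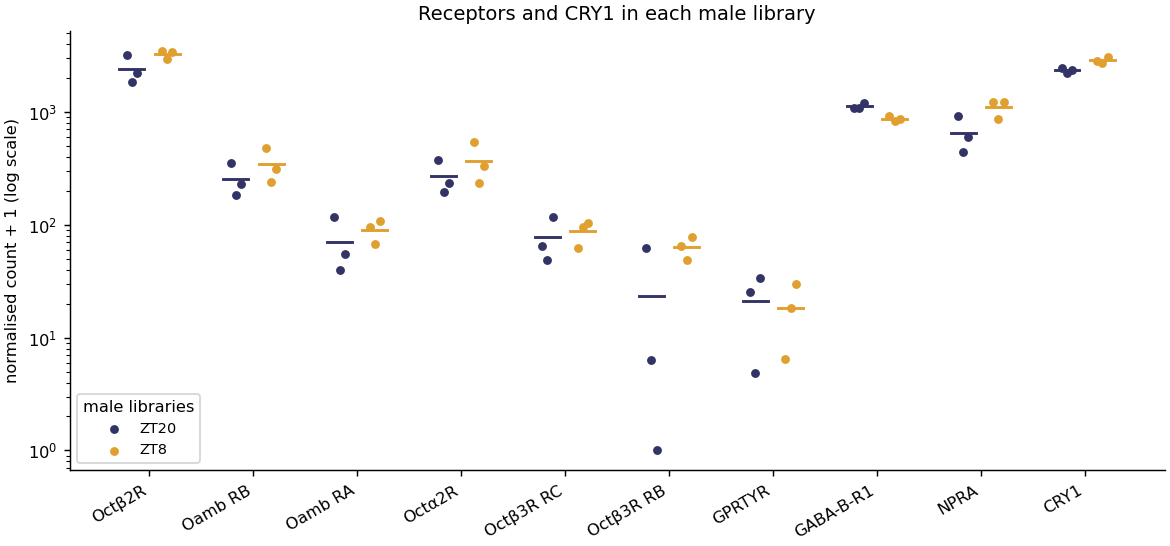
Normalised counts plus 1 (y axis, log scale) of octopamine and tyramine receptor transcripts, GABA-B-R1, NPRA and CRY1 in each male library, with ZT20 left of ZT8 and a line at each group mean. The ZT20 and ZT8 libraries of Octβ2R, Oamb and Octα2R overlap, while the 3 ZT20 libraries of GABA-B-R1 (1076 to 1204) all lie above those of ZT8 (826 to 922).

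The list member with the smallest p was GABA-B-R1 (AGAP010281-RA), a metabotropic GABA receptor that acts through inhibitory G proteins. It was chosen, like the others in this paragraph except CRY1, after its values were seen. It had 1093, 1076 and 1204 normalised counts at ZT20, against 922, 826 and 865 at ZT8, and the groups did not overlap. The log2 fold change was 0.40 (SE 0.10, edgeR adjusted p = 0.0919), and DESeq2 gave 0.41 with an adjusted p of 0.00121. At male ZT16 over ZT4 it was -0.15 and in females at ZT20 over ZT8 it was 0.20. The peptide receptor NPRA (AGAP003283-RA) had 928, 443 and 596 at ZT20, against 1229, 866 and 1215 at ZT8, with ZT20 replicate 1 inside the ZT8 range. Its log2 fold change was -0.72 (SE 0.25, edgeR adjusted p = 0.329), with -0.70 at male ZT16 over ZT4 and -0.40 in females. The allatostatin A receptor AGAP010486-RA had 1006, 667 and 651 at ZT20, against 1175, 965 and 1025 at ZT8, a log2 fold change of -0.42 (edgeR adjusted p = 0.572).

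CRY1 (AGAP001958-RA), which in Drosophila is the blue-light receptor that resets the circadian clock, was the only clock gene that the sources used here name. It had 2475, 2198 and 2370 normalised counts at ZT20, against 2842, 2735 and 3057 at ZT8. The libraries did not overlap, but the log2 fold change of -0.27 (95% interval -0.49 to -0.04) was not called over all transcripts (edgeR adjusted p = 0.417). At male ZT16 over ZT4 it was -1.2e-04, and in females at ZT20 over ZT8 it was 0.07.

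The receptors of classical transmitters and the other amine receptors held no call either. Of the 13 acetylcholine receptor transcripts, 9 had positive log2 fold changes, beside 6098 of all 12360 tested transcripts. The largest was that of the nicotinic subunit isoform nAChRα4 RA (AGAP000138-RA), with 48.8, 25.4 and 48.7 normalised counts at ZT20, against 27.3, 11.2 and 4.67 at ZT8 (log2 fold change 1.54, edgeR adjusted p = 0.502). Summed over isoforms, nAChRα4 had 101, 58.4 and 156 at ZT20, against 71.8, 85.1 and 83.2 at ZT8, and the groups overlapped. Among glutamate receptors, GLURIIe (AGAP012447-RA) had 34.3, 26.9 and 48.7 at ZT20, against 61.8, 55.8 and 86.3 at ZT8, with no overlap (log2 fold change -0.86, edgeR adjusted p = 0.562). The histamine receptor AGAP002566-RA, a chloride channel opened by the transmitter of insect photoreceptors, had 488, 289 and 454 at ZT20, against 493, 361 and 537 at ZT8 (log2 fold change -0.15, 95% interval -0.56 to 0.26).

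The serotonin receptors also overlapped between the times of day. The 5-HT7 receptor AGAP004222-RA had 1132, 921 and 1055 normalised counts at ZT20, against 1318, 1061 and 1052 at ZT8 (log2 fold change -0.11, 95% interval -0.49 to 0.27). The other 5-HT7 gene, AGAP004223-RA, had 589.5, 409.6 and 478 at ZT20, against 427, 433 and 445 at ZT8 (log2 fold change 0.20, 95% interval -0.09 to 0.50). For 5-HT1B (AGAP011481-RA) the values were 375.5, 203 and 165 at ZT20, against 319.8, 312 and 376 at ZT8 (log2 fold change -0.41, 95% interval -1.17 to 0.35). The intervals of both 5-HT7 genes excluded a 2-fold change and that of 5-HT1B did not.

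The opsins varied widely between libraries of the same time. AGAP013149-RA, which the study lists under the Drosophila opsin names ninaE, Rh2 and Rh6, had 104800, 271100 and 851400 normalised counts at ZT20, against 430700, 481300 and 207800 at ZT8. ZT20 held both the lowest and the highest library, and the log2 fold change was 0.15 (95% interval -1.83 to 2.13). Over the 10 opsin transcripts the log2 fold change ran from -0.999 to 0.816 with a median of 0.17. Of these, 8 were positive, beside 6098 of all 12360 tested transcripts. The opsin transcripts were read in the same libraries, so their signs are not independent. The summed opsin counts went the other way, with a mean log2 difference of -0.295 between ZT20 and ZT8.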

How the data were processed

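The authors quantified the reads with Kallisto 0.46.0 against the annotated transcripts of VectorBase release 53 and deposited a table of estimated counts, not normalized. That step splits ambiguous reads among isoforms and near-identical genes. Libraries were PCR-amplified full-length cDNA without molecular identifiers. Estimated counts were rounded and tested with edgeR 4.0.16 (filterByExpr, TMM, quasi-likelihood F-test) in R 4.3.3, and p-values were adjusted by Benjamini-Hochberg across the whole table. The SE is the absolute log2 fold change over the square root of F. Normalised counts used DESeq2 1.42.0 size factors over 35 libraries. DESeq2, other scalings and filters, an opsin covariate, a replicate block and leaving out each library were alternatives. The discarded ZT12 library was identified as replicate 3. Its group is not part of the comparison of ZT20 with ZT8, but the male ZT12 means given above rest on replicates 1 and 2 alone. The labels name separate replicates, and p-values measure only the spread between these libraries.

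Members and lists were chosen with earlier results of these data known. The RefSeq table matched 0 identifiers, so gene lists by name, other clock genes and most tissue markers could not be assembled, and gene names are the study's. Transcripts named by rule were the largest called changes without overlap (at most 2 unnamed per direction), the octopamine and tyramine receptors, and clock genes. The fits were also run on simulated counts, drawn independently for each transcript and library, unlike the shared opsin differences of the real libraries. The outcome is not reported here and lends no weight to the results.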

Additional observations from a re-analysis of the deposited data

How the results depend on the processing

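The number of calls moved with the settings. All 84 transcripts kept their sign under every alternative fitted per transcript, which could hardly turn out otherwise, because their groups did not overlap. Scaling by total counts alone gave 68 calls. There were 135 (45 higher, 90 lower) with the opsin covariate, 275 (106 higher, 169 lower) with DESeq2, 30 (14 higher, 16 lower) in the 6 libraries alone and 3 (1 higher, 2 lower) in all 18 male libraries. Leaving out each library in turn gave 43 to 70 (16 to 26 higher, 25 to 46 lower). With a replicate block the count was 125 (43 higher, 82 lower), but same-numbered libraries deviated with correlations of -0.01, 0.28 and -0.07, so the numbers were not taken as pairs. The cause of these shifts was not tested. DESeq2 called 35 transcripts in the test of males against females, where edgeR called 0 with the other scalings, no filter, the block, the opsin covariate and each of the 6 libraries left out. The other alternatives were not run for that test.

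The settings of the next counts were chosen after seeing the data. Female calls numbered 54 with the opsin covariate, 117 with DESeq2, 30 with the replicate block and 9 to 14 when single libraries were left out. Calls at male ZT16 over ZT4 numbered 193 with DESeq2, 95 with the block and 49 to 73 when single libraries were left out. Of the neuromodulation list, 1 member was called with the block (NPRA, -0.76, edgeR adjusted p = 0.0393), 1 with DESeq2 (GABA-B-R1) and 0 to 1 when single libraries were left out. Among the named transcripts, 544 values were recomputed, of which 496 kept their direction and call, 40 lost the call, 3 gained it and 5 changed sign. Over single libraries left out, the log2 fold change of AGAP002519-RA ran from -0.26 to 0.81 (-0.15 without ZT8 replicate 1), that of AGAP002888-RA from -1.71 to 0.52 (0.34 without ZT20 replicate 1) and that of AGAP002888-RC from -0.58 to 0.0715.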

Other observations

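The dopamine receptor GPRDOP1 (AGAP004613), chosen after its values were seen, had isoform counts that changed places between libraries of the same time. Isoform RA had 0, 64.6 and 121 normalised counts at ZT20, against 90.0, 0 and 0 at ZT8, while isoform RB had 128, 1.54 and 0 at ZT20, against 45.4, 43.2 and 112 at ZT8. Summed over both isoforms, the gene had 128, 66.1 and 121 at ZT20, against 135, 43.2 and 112 at ZT8, and the log2 fold change was 0.15 (SE 0.47, edgeR adjusted p = 0.972). The isoform values taken alone gave a log2 fold change of 1.098 for RA and of -0.615 for RB. How the reads were shared between the isoforms was not tested.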
